A study of Mus musculus with 10 samples.

Results

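The cytosolic nucleic acid sensors described here are 10 genes of innate immunity: the RNA receptors Ddx58, Ifih1 and Dhx58, the RNA-binding kinase Eif2ak2, the Z-form nucleic acid sensor Zbp1, the adaptors Mavs and Tmem173, the kinase Tbk1, and the RNA editor Adar and DNA exonuclease Trex1, which edit or degrade the ligands of these receptors. They were named for their function, by a rule that uses no measured value, although earlier results of these data were known when the list was made. By symbol 9 were found in the count data and 1, Tmem173, was listed under its newer symbol Sting1. All 10 were among the 12654 genes with enough counts to be tested, out of 23382 NCBI gene identifiers and 6318 unnamed BGIG genes. The cells were peritoneal macrophages of C57BL/6 mice aged 8 weeks, collected on day 3 after thioglycollate, an irritant that draws inflammatory macrophages into the peritoneal cavity. RNA of 5 control and 5 ox-LDL cultures, labelled as biological replicates, was sequenced on a BGISEQ-500. By the labels the controls received no treatment, while the ox-LDL cells were given lipopolysaccharide (LPS, a bacterial cell wall product) at 100 ng/ml and then oxidized low-density lipoprotein (ox-LDL), the modified lipoprotein that turns macrophages into foam cells, for 16 h at a concentration of 100 µg/ml. A figure legend of the study can also be read as LPS for both groups. Following the labels, the LPS and the ox-LDL parts of a difference cannot be told apart, and in bulk RNA fewer cells of a type and less RNA per cell cannot be told apart either.

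RIG-I (encoded by Ddx58) and MDA5 (Ifih1) are helicases that bind viral or misplaced double-stranded RNA and signal through MAVS on the mitochondrial surface, whereas cyclic GMP-AMP made by cGAS upon DNA binding signals through STING (Tmem173) on the endoplasmic reticulum. Both routes meet at the kinase TBK1, which phosphorylates interferon regulatory factors and so starts type I interferon production. Many of the sensors are themselves interferon-stimulated genes, and LPS induces interferon-β in macrophages through Toll-like receptor signaling.

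Levels are given in CPM, estimated read counts scaled to a common library size with edgeR's TMM factors, and log2 fold changes are ox-LDL over control. Adjusted p-values come from edgeR's quasi-likelihood test with Benjamini-Hochberg adjustment over all 12654 genes. A gene was called higher or lower at an adjusted p below 0.01, the study's cutoff, and a log2 fold change above 2, its other cutoff, was counted separately. Total counts were 20094647 to 20687289 per control library and 19257131 to 20358017 per ox-LDL library. The TMM factors of the controls were 0.916 to 1.179, and those of ox-LDL libraries 1 to 5 were 1.193, 0.593, 1.071, 1.113 and 0.837, so that ox-LDL 2 stood apart. In ox-LDL 2, genes whose length implied by the deposited values was under 1000 bases were a median of 1.81 (log2) above the other ox-LDL libraries, and genes of 4000 bases and over were 0.65 below them, so scaling and length bear on the members' levels in that library. A trend on length was not confined to it. Spearman's correlation of gene length with a library's deviation from its group mean was -0.656 in ox-LDL 2. It was -0.589 in control 1 and -0.48 in control 4, but 0.359 to 0.479 in controls 2, 3 and 5. In the other ox-LDL libraries it was 0.0567 to 0.532. The part of length in the members' control levels was not tested. Macrophage markers were present in every library, with a sum over 8 markers of 19680 to 46840 CPM in controls and 12490 to 47930 CPM in ox-LDL libraries. Their means went both ways, from 269.5 (control) to 1135 CPM (ox-LDL) for Adgre1 and from 1494 to 1994 CPM for Cd68, but from 27790 to 17450 CPM for Lyz2 and from 304.5 to 177.8 CPM for Itgam. Summed neutrophil markers were 6.33 to 15.6 CPM in controls and 11.2 to 152.8 CPM in ox-LDL libraries, which S100a8 carried, with Mpo and Elane at no more than 3 counts in any library. Mesothelial and stromal markers were 4.45 to 18.3 and 13.96 to 47.1 CPM, eosinophil and mast cell markers were 2.53 to 8.19 and 0.537 to 2.33 CPM, B cell markers were 0.984 to 2.68 and 1.01 to 2.96 CPM, dendritic cell markers were 12.9 to 17.0 and 8.05 to 14.02 CPM, and T and NK cell markers did not pass 1.49 CPM. Single genes carried some of these sums. Tcf4 had means of 14.4 (control) and 9.87 CPM (ox-LDL) in the dendritic cell sum, while Zbtb46 rose from 0.499 to 1.18 CPM and Ccr9 from 0.15 to 0.632 CPM. Col1a1 rose from 2.34 to 15.5 CPM and Pdgfra from 3.78 to 10.7 CPM, while Upk3b fell from 0.524 to 0.075 CPM. Siglecf fell from 4.32 to 0.444 CPM. The part of these other cell types in the results below was not tested.

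Of the 10 sensing genes, 6 were higher in ox-LDL-treated macrophages and 0 were lower by edgeR's test. Among all genes tested 9.4% were called higher and 5.35% lower. None of the members was lower at an unadjusted p below 0.05 either, and none was called lower by DESeq2, limma-voom or any other alternative. The 6 were Zbp1, Trex1, Dhx58, Ifih1, Adar and Tbk1. Zbp1, Trex1 and Dhx58 also passed a log2 fold change of 2, which 4.78% of all genes did. The log2 fold change was positive for 9 members and for 56.2% of all genes, and its median was 1.11 over the members and 0.10 over all genes. In 5 members (Zbp1, Trex1, Dhx58, Ifih1 and Tbk1) the lowest ox-LDL level exceeded the highest control level, as it did for 11.6% of all genes, while for 9.11% of all genes the groups were apart in the opposite direction. The count of 6 fell to 4 without control 1 or without control 4, and it was 3 (Zbp1, Trex1 and Dhx58) when libraries were scaled by total count alone.

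**Figure D1:**
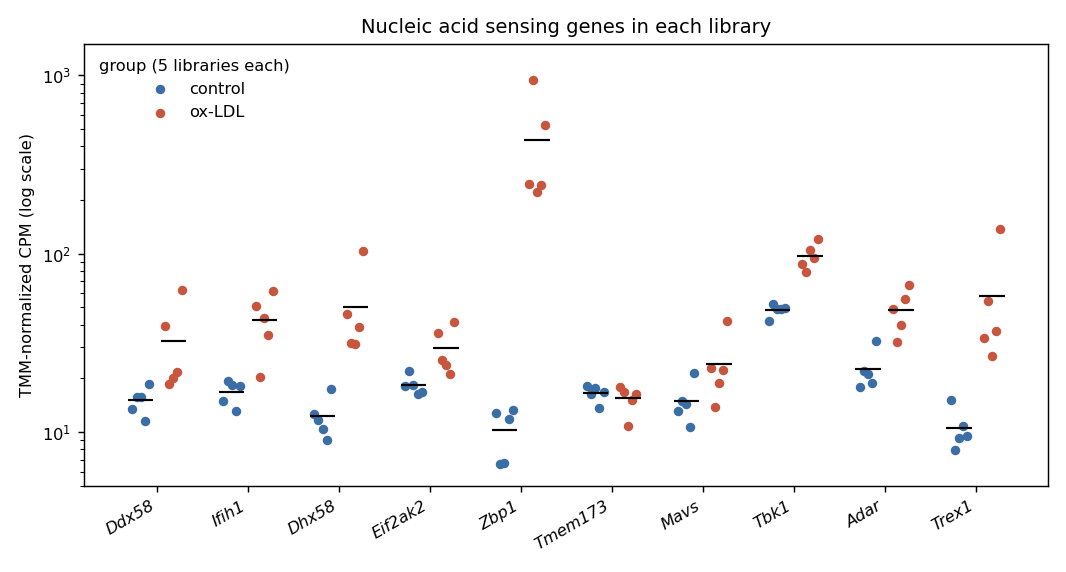
Level of each of the 10 sensing genes (CPM, log axis) in 5 control and 5 ox-LDL libraries; each point is 1 library and each bar a group mean. Zbp1 lay between 222.6 and 943.0 CPM in the ox-LDL libraries against 6.63 to 13.4 CPM in controls, while the groups of Tmem173 overlapped.

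**Figure D2:**
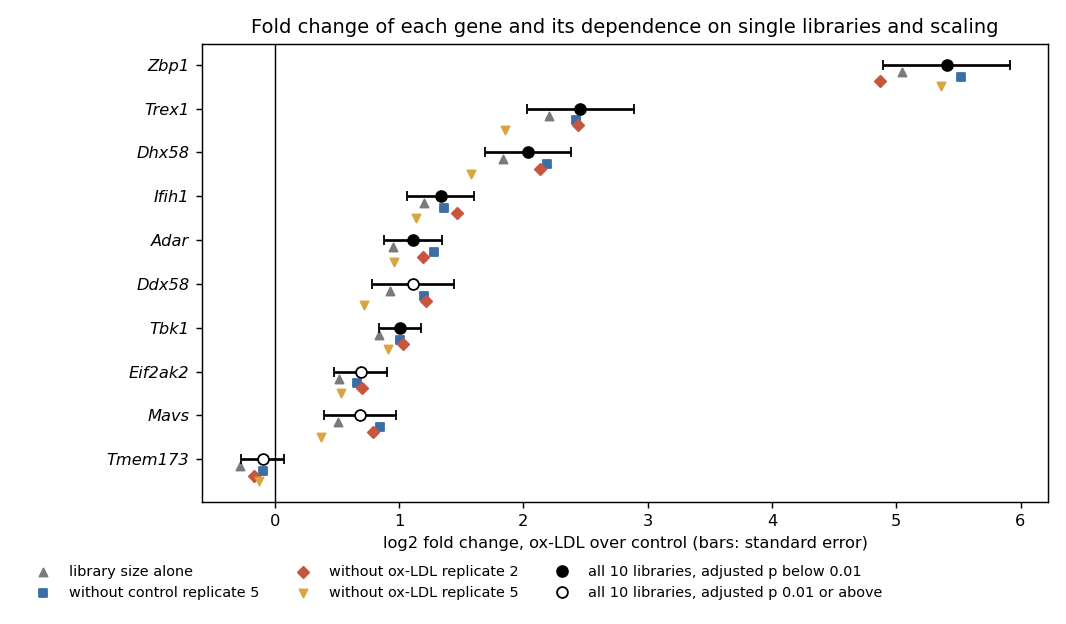
Log2 fold change of each member, ox-LDL over control, with its standard error from edgeR's quasi-likelihood fit (5 libraries per group). Coloured markers give the value with library size alone and without control 5, ox-LDL 2 or ox-LDL 5, and filled black points mark an adjusted p below 0.01 with all 10 libraries, which Zbp1, Trex1, Dhx58, Ifih1, Adar and Tbk1 passed.

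Because 9 members lay on the same side of 0, their promoters were searched for the letters that interferon-activated factors are known to bind. RefSeq windows of GRCm38.p6, from 250 bases before to 50 bases after a transcript start, were used for 7 members (10 windows). For Dhx58 and Zbp1 no window was given, and Tmem173 was left out of the search. The motifs, read on both strands, were the short core AANNGAAA and the long core (GAAA, any 2 bases, GAAA) of the interferon-stimulated response element, the second of which contains the first, and the gamma-activated site TTCNNNGAA. Of 32851 windows of the same length, 23.9% held the short core, 3.44% the long core and 8.3% the gamma-activated site. The short core was found in 4 members (Ddx58, Ifih1, Adar in 1 of its windows and Eif2ak2), the long core in 3 (Ddx58, Ifih1 and Eif2ak2) and the gamma-activated site in 2 (Adar and Eif2ak2). These counts are of genes, of which Adar had 3 windows and Trex1 2, while the shares above are of windows. The stretches of 30 bases around the core matches are shown as the sequences behind that count, 5′ to 3′ on the gene's strand, with short and long core matches in capitals.
Ddx58, upstream, chr4:40239866-40239895, minus strand: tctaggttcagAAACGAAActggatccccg
Ddx58, at the start, chr4:40239805-40239834, minus strand: ccctgaggcagTTTCGATTTCctatggcca
Ifih1, chr2:62646209-62646238, minus strand: ctggagaagagAATCGAAACAGAAAccgat
Adar, chr3:89730736-89730765, plus strand: ccttttcaaggAAACGAAAgtgaactctgg
Eif2ak2, chr17:78882534-78882563, minus strand: gtccgccggGAAAACGAAAcagaagagaac
In Ddx58 the first match covered bases -59 to -52 from the start, and the second, short and long core together on the opposite strand, bases 3 to 12. The matches in Ifih1 (bases 29 to 42), Adar (30 to 37) and Eif2ak2 (19 to 28) lay just inside the transcript. The 250 bases before the start of Tbk1, shown for contrast with those of Ddx58, held none of the 3 motifs.
Ddx58, chr4:40239826-40240075, minus strand: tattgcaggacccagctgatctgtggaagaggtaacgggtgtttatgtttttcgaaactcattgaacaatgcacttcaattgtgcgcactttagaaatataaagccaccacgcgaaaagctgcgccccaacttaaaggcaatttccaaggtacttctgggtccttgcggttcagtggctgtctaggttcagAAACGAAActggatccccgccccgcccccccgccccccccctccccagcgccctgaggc
Tbk1, chr10:121586795-121587044, minus strand: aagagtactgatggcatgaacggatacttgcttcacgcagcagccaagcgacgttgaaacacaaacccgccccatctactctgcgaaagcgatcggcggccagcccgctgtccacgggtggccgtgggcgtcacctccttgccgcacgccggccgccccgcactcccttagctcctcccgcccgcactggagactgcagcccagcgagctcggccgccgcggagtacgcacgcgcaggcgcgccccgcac
Of the 4 members with a core, Ifih1 and Adar were called higher and Ddx58 and Eif2ak2 were not, and of the other 3, Tbk1 and Trex1 were called and Mavs was not. These matches describe letters in the windows, and binding was not measured.

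The RIG-I-like receptors were all higher on average in ox-LDL-treated cells, and Dhx58 and Ifih1 passed the test. Ddx58 (NCBI gene 230073; mm9 chr4:40150806-40186861, minus strand) encodes RIG-I, which recognizes short double-stranded RNA with 5′ triphosphates. In controls 1 to 5 its level was 13.4, 15.8, 15.8, 11.6 and 18.7 CPM, and in ox-LDL libraries 1 to 5 it was 39.4, 18.5, 20.2, 21.8 and 63.0 CPM. Ox-LDL 1 and 5 were far above the controls, ox-LDL 3 and 4 were slightly above them, and ox-LDL 2 lay below control 5, so the groups overlapped. Ddx58 had a log2 fold change of 1.11 ± 0.33 (SE; edgeR adjusted p = 0.0278), which missed the call. It was 1.22 without ox-LDL 2 (edgeR adjusted p = 0.00823), and DESeq2 on all libraries gave an adjusted p of 0.00884, so both would call it higher. So would removal of the trend on gene length (1.36, edgeR adjusted p = 0.00908). In 22 of 26 alternatives Ddx58 stayed uncalled. Its change was 0.72 without ox-LDL 5 (edgeR adjusted p = 0.049) and 0.93 with scaling by total count alone (edgeR adjusted p = 0.116). By limma on log2 FPKM it was 0.57 to 0.63 (adjusted p = 0.125 to 0.207).

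Ifih1 (NCBI gene 71586; mm9 chr2:62433850-62484312, minus strand) encodes MDA5, the receptor for long double-stranded RNA. The controls had 14.9, 19.4, 18.5, 13.1 and 18.2 CPM of Ifih1 RNA. The ox-LDL libraries had 51.0, 20.5, 43.4, 35.1 and 61.9 CPM. The groups did not overlap, although ox-LDL 2 exceeded the highest control by little. The change was 1.33 ± 0.27 (SE; edgeR adjusted p = 0.00324), a 2.52-fold difference. The call was lost without control 1 (edgeR adjusted p = 0.0114), without control 4 (edgeR adjusted p = 0.0119) and with scaling by total count alone (edgeR adjusted p = 0.0374). It was also lost with the replicate number as a block (edgeR adjusted p = 0.0124). The same held for limma on log2 FPKM (adjusted p = 0.0611 and 0.0733 filtered, 0.147 unfiltered).

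Dhx58 (NCBI gene 80861; mm9 chr11:100556018-100565585, minus strand) encodes LGP2, a relative of both helicases that lacks their signaling domains and modulates them. Control libraries gave 12.7, 11.6, 10.4, 9.06 and 17.4 CPM. Ox-LDL libraries gave 46.0, 31.4, 31.4, 38.9 and 103.6 CPM. The lowest ox-LDL library was well above the highest control, and ox-LDL 5 stood far above the other ox-LDL libraries. Dhx58 had a log2 fold change of 2.04 ± 0.35 (SE; edgeR adjusted p = 0.00123), the largest of the receptor genes. The call remained in each fit that left out 1 library, but the change fell to 1.58 without ox-LDL 5, 1.94 without control 4 and 1.98 without control 3, under the cutoff of 2. It was also under 2 with limma-voom and the replicate block (1.91 each), upper-quartile factors (1.86), total count alone (1.84) and no filter (1.97). Limma on log2 FPKM gave 1.55 to 1.69, and the call was lost with log2(FPKM + 1) unfiltered (adjusted p = 0.0222). Its exons share 141 bases with Gm11547 on the opposite strand, and the sources used here do not give the strand setting of the counts.

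Of 20 genes for regulators of RIG-I-like receptors and MAVS, 19 were tested, 5 were higher and 0 lower, and their median log2 fold change was 0.13. For this list and those below, the shares over all genes tested were 9.4% higher and 5.35% lower. Nlrc5, an NLR family regulator, had 5.36 ± 1.31 CPM in controls and 53.8 ± 10.4 CPM after ox-LDL (SD, 5 libraries each) and rose by 3.32 on the log2 scale (edgeR adjusted p = 4.87e-06). Trim25, the ubiquitin ligase known to act on RIG-I, rose by 1.61 (edgeR adjusted p = 0.00302), a call lost without control 1, 3 or 4, when the highest adjusted p was 0.0112. Rnf135, another ubiquitin ligase of RIG-I, had a log2 fold change of 0.10 (edgeR adjusted p = 0.713). Among the adaptors that bind MAVS, Traf2 rose by 1.78 (edgeR adjusted p = 0.000714) and Traf3 by 1.54 (edgeR adjusted p = 0.00134). Traf6, the remaining call of the 5, rose by 1.14 (edgeR adjusted p = 0.00825) and kept its call in 2 of 10 fits that left out 1 library, with an adjusted p of up to 0.0258. Prkra, an activator of RIG-I and of PKR, had a log2 fold change of -1.13 (edgeR adjusted p = 0.0139). Without ox-LDL 2 the list had 6 genes higher and 1 lower.

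Among 20 other sensors and RNA helicases, 2 were higher and 1 lower, with a median log2 fold change of -0.11. These counts were near the shares over all genes tested, 9.4% higher and 5.35% lower. Ddx60, a cofactor of RIG-I-like receptors, rose from 3.84 ± 0.51 to 14.2 ± 9.94 CPM (SD, n = 5 each; log2 fold change 1.89, edgeR adjusted p = 0.00717), and kept its call in 3 of 10 fits that left out 1 library (adjusted p of up to 0.022). Zc3hav1, the zinc finger antiviral protein that binds CpG-rich RNA, rose by 1.32 (edgeR adjusted p = 0.00135). Hnrnpa2b1, a nuclear RNA-binding protein, fell by 0.85 (log2 fold change -0.85, edgeR adjusted p = 0.00623), a call kept in 1 of 10 such fits (adjusted p of up to 0.0209). Mb21d1, which encodes cGAS, had 4.70, 4.54, 4.19, 4.33 and 7.52 CPM in controls and 7.87, 5.91, 9.12, 8.37 and 24.4 CPM in ox-LDL libraries. Its groups overlapped and its log2 fold change was 1.14 ± 0.37 (SE; edgeR adjusted p = 0.0403). Counts of 1 to 3 genes in this list changed with the library left out, to 1 higher and 0 lower without control 5, 3 higher and 3 lower without ox-LDL 2, and 1 higher and 1 lower without ox-LDL 5.

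Zbp1 differed most of all members. ZBP1 (NCBI gene 58203; mm9 chr2:173032113-173044424, minus strand) binds left-handed Z-form RNA or DNA and passes the signal to RIPK3 in necroptosis. Its control levels were 12.8, 6.63, 6.72, 11.8 and 13.4 CPM. Its ox-LDL levels were 247.1, 943.0, 222.6, 243.8 and 524.0 CPM. Ox-LDL 1, 3 and 4 were close to each other, ox-LDL 5 was higher and ox-LDL 2 was the highest, and the lowest of them was many times the highest control. This was a log2 fold change of 5.41 ± 0.51 (SE; edgeR adjusted p = 2.95e-05), or 42.4-fold. Zbp1 ranked 97 by log2 fold change and 83 by p among the 12654 genes. Without ox-LDL 2 it was 4.87 (edgeR adjusted p = 3.39e-06), and over all alternatives it was 4.73 to 5.67, called higher in each. Per base of transcript, as FPKM, Zbp1 was also the most abundant member in ox-LDL-treated cells, as given below.

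Of 7 genes for the cell death partners of ZBP1, 2 were higher and 0 lower, with a median log2 fold change of -0.01. Mlkl, the pore-forming effector of necroptosis, had 20.02, 18.9, 19.3, 15.8 and 18.2 CPM in controls and 104.6, 167.5, 136.2, 115.2 and 208.3 CPM in ox-LDL libraries. The groups of Mlkl were far apart, with a log2 fold change of 2.99 ± 0.22 (SE; edgeR adjusted p = 7.34e-06). Ripk3, the kinase between ZBP1 and MLKL, had 14.7 ± 3.23 and 23.4 ± 4.19 CPM (SD, n = 5 each), without overlap, and a log2 fold change of 0.67 that missed the call (edgeR adjusted p = 0.0285). The values of Ripk1 (log2 fold change -0.01, edgeR adjusted p = 0.968) and Casp8 (-0.25, edgeR adjusted p = 0.44) were also short of it. Pgam5, a mitochondrial phosphatase, rose by 0.67 (edgeR adjusted p = 0.00737) and kept its call in 2 of 10 fits that left out 1 library, with an adjusted p of up to 0.0276. It lost it without control 5 and without ox-LDL 5, which each left Mlkl as 1 call in the list.

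Eif2ak2 encodes PKR, a kinase that double-stranded RNA activates to phosphorylate eIF2α and stop translation (NCBI gene 19106; mm9 chr17:79251904-79281913, minus strand). Eif2ak2 was at 18.2, 21.95, 18.3, 16.4 and 16.9 CPM in controls and at 36.2, 25.5, 23.7, 21.1 and 41.6 CPM in ox-LDL libraries. Only ox-LDL 4 was below a control, control 2, and ox-LDL 1 and 5 were the highest. PKR RNA thus had a log2 fold change of 0.69 ± 0.21 (SE; edgeR adjusted p = 0.0303), which missed the call, as it did in every alternative with the cutoff of 0.01. Gm16825 and n-R5s29 on the opposite strand share 174 and 47 of its exon bases.

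In the list of 12 eIF2α kinases and stress response genes, 2 were higher and 0 lower, with a median log2 fold change of 0.92. The other kinases gave log2 fold changes of 0.11 for Eif2ak1 (edgeR adjusted p = 0.694), -0.43 for Eif2ak3 (edgeR adjusted p = 0.276) and 0.66 for Eif2ak4 (edgeR adjusted p = 0.0723). Ppp1r15a, the phosphatase subunit that removes the phosphate from eIF2α, rose from 23.2 ± 2.52 to 98.3 ± 20.1 CPM (SD, n = 5 each; log2 fold change 2.08, edgeR adjusted p = 2.72e-05). Trib3, a pseudokinase gene of the same response, rose by 1.99 (edgeR adjusted p = 0.00895) and kept its call in 2 of 10 fits that left out 1 library, with an adjusted p of up to 0.0269.

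The adaptors Mavs and Tmem173 did not pass the test. Mavs (NCBI gene 228607; mm9 chr2:131059799-131073761, plus strand) had 13.2, 15.0, 14.3, 10.7 and 21.5 CPM in controls. In ox-LDL libraries it had 23.0, 13.8, 18.8, 22.3 and 42.0 CPM. Ox-LDL 5 was the highest and control 5 the highest control, while ox-LDL 2 and 3 lay within the control range. Mavs had a log2 fold change of 0.68 ± 0.29 (SE; edgeR adjusted p = 0.104), and it was 0.37 without ox-LDL 5 and 0.85 without control 5.

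Tmem173 (NCBI gene 72512), the gene of STING, was the one member with a negative estimate. Its levels were 18.1, 16.3, 17.7, 13.7 and 16.8 CPM in controls and 17.96, 16.8, 10.9, 15.2 and 16.4 CPM in ox-LDL libraries. Only ox-LDL 3 lay below the control range. The log2 fold change of -0.10 ± 0.17 (SE; edgeR adjusted p = 0.725) was smaller than its error, and its sign turned without ox-LDL 3 (0.0074) and with the trend on gene length removed (0.18). Of 11 STING regulators, 1 was higher and 1 lower (9.4% and 5.35% of all genes), and the median log2 fold change was 0.20. Insig1, a sterol-regulated protein of the endoplasmic reticulum that also binds an E3 ligase for STING, fell by 1.78 (log2 fold change -1.78, edgeR adjusted p = 0.000394), from 146.2 ± 40.2 to 42.6 ± 8.76 CPM (SD, n = 5 each). Ifi35, an interferon-induced protein, rose by 1.53 (edgeR adjusted p = 0.00797), a call kept in 4 of 10 fits that left out 1 library (adjusted p of up to 0.0248). It was lost, among others, without control 5 and without ox-LDL 5, which left 0 STING regulators higher by edgeR. Trim56, a ubiquitin ligase that acts on STING, had a log2 fold change of 1.03 (edgeR adjusted p = 0.0156).

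Tbk1, the kinase shared by both routes, was the least variable of the genes called higher. It lies at mm9 chr10:120983511-121023850 on the minus strand (NCBI gene 56480). Control libraries had 42.2, 52.5, 49.3, 49.3 and 49.8 CPM, and ox-LDL libraries had 88.0, 79.4, 105.1, 95.0 and 121.3 CPM. The groups were separated, and the coefficient of variation was 7.89% in controls and 16.6% in ox-LDL libraries. The log2 fold change of 1.01 ± 0.17 (SE; edgeR adjusted p = 0.000977) was a 2.01-fold difference. It remained called with each library left out and was not called with scaling by total count alone (0.84, edgeR adjusted p = 0.0374). Nor was it called by limma on log2 FPKM (adjusted p = 0.0466 and 0.0492 filtered, 0.104 unfiltered).

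Of 9 TBK1 partners and interferon regulatory factors, 3 were higher and 0 lower, with a median log2 fold change of 0.50. Irf7, the interferon-induced regulatory factor, had 17.9, 8.39, 12.3, 11.5 and 66.3 CPM in controls and 939.4, 471.7, 209.6, 250.4 and 845.1 CPM in ox-LDL libraries. Control 5 was well above the other controls, and every ox-LDL library was higher still. Irf7 had a log2 fold change of 4.55 ± 0.70 (SE; edgeR adjusted p = 0.000651) and 5.44 without control 5, which moved the fold by more than 1.5 times. Sqstm1, an autophagy receptor, rose by 2.64 (edgeR adjusted p = 0.000105) and Optn, an adaptor that binds TBK1, by 1.01 (edgeR adjusted p = 0.00332), the latter called in 4 of 10 fits that left out 1 library (adjusted p of up to 0.0122). The TBK1-binding scaffolds Tank (log2 fold change 0.94, edgeR adjusted p = 0.018), Azi2 (0.50, edgeR adjusted p = 0.021) and Tbkbp1 (-0.18, edgeR adjusted p = 0.589) missed the call. So did the related kinase Ikbke (-0.31, edgeR adjusted p = 0.314) and the substrate Irf3 (-0.16, edgeR adjusted p = 0.487).

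The genes that limit the ligands were both higher. Trex1 (NCBI gene 22040; mm9 chr9:108960447-108962852, minus strand) degrades cytosolic DNA. Controls gave 15.1, 7.96, 9.24, 10.9 and 9.56 CPM, and ox-LDL libraries gave 33.6, 54.1, 26.8, 37.1 and 137.5 CPM. The groups did not overlap, control 1 was the highest control and ox-LDL 5 was far above the rest. The log2 fold change was 2.46 ± 0.43 (SE; edgeR adjusted p = 0.00147), or 5.49-fold. It was 1.85 without ox-LDL 5 (edgeR adjusted p = 0.000855), a fold smaller by more than 1.5 times and under the cutoff of 2. Trex1 shares 1314 exon bases with Atrip on the same strand, so their reads can be hard to separate, and Atrip had a log2 fold change of 0.33 (edgeR adjusted p = 0.209).

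Adar (NCBI gene 56417; mm9 chr3:89518944-89557368, plus strand) encodes ADAR1, which edits adenosine to inosine in double-stranded RNA and so keeps self RNA from MDA5, PKR and ZBP1. The controls held 17.9, 22.1, 21.1, 18.9 and 32.4 CPM, and the ox-LDL libraries held 48.7, 32.0, 39.9, 56.1 and 66.7 CPM. Control 5 was just above ox-LDL 2, and apart from that pair the groups were separate. Adar had a log2 fold change of 1.11 ± 0.23 (SE; edgeR adjusted p = 0.00443). The call was lost without control 1 (edgeR adjusted p = 0.0153), control 2 (0.0146), control 3 (0.0143), control 4 (0.0163) or ox-LDL 4 (0.0128), and with scaling by total count alone (0.0629). It was also lost with the trend on gene length removed (edgeR adjusted p = 0.0109). Limma on log2 FPKM did not call it either (adjusted p = 0.0838 and 0.0939 filtered, 0.175 unfiltered). Of 12 other genes for nucleases and editing, 1 was higher and 0 lower (9.4% and 5.35% of all genes), with a median log2 fold change of 0.26. Samhd1, which depletes the nucleotides needed for reverse transcription, rose from 230.1 ± 19.6 to 683.4 ± 295.0 CPM (SD, n = 5 each; log2 fold change 1.57, edgeR adjusted p = 0.00232). Without ox-LDL 2 the list had 2 genes higher and 1 lower. Enpp1, which hydrolyses cyclic GMP-AMP outside the cell, had a log2 fold change of -1.33 (edgeR adjusted p = 0.0266).

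Downstream of these routes, the list for type I interferon and its receptor pathway held 12 genes, of which 9 had an entry and 8 were tested. Of these, 4 were higher and 0 lower, with a median log2 fold change of 1.29. Ifnb1 itself had 0 counts in every control and 0 to 6 counts in ox-LDL libraries, too few to test, where 3 counts correspond to 0.128 to 0.257 CPM. Stat2, a signal transducer of the interferon receptor, rose from 12.8 ± 3.01 to 55.0 ± 22.8 CPM (SD, n = 5 each; log2 fold change 2.10, edgeR adjusted p = 0.000371). Usp18, a negative regulator of the receptor, rose by 2.17 (edgeR adjusted p = 0.00608), and the receptor chain Ifnar2 by 1.58 (edgeR adjusted p = 0.00438), each called in 4 of 10 fits that left out 1 library, with adjusted p of up to 0.0191 and 0.0158. Both were lost without ox-LDL 5, which left 2 calls in the list, while 5 were called without ox-LDL 2. The receptor chain Ifnar1 had a log2 fold change of 0.21 (edgeR adjusted p = 0.617).

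**Figure D3:**
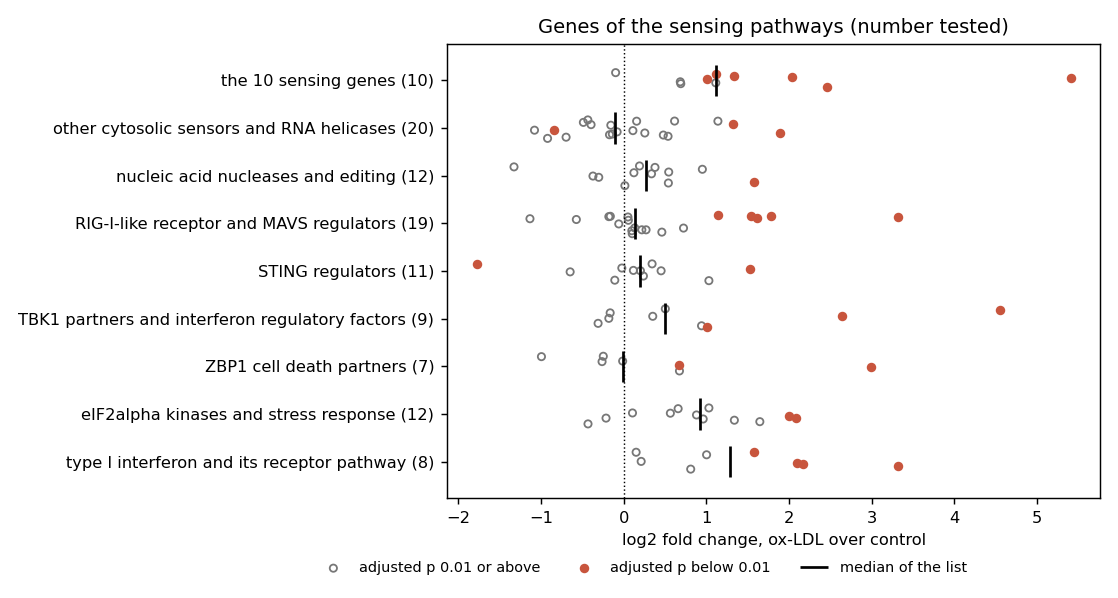
Log2 fold change (ox-LDL over control) of every tested gene in the 10 sensing genes and 8 lists of related genes; filled points have an edgeR adjusted p below 0.01, open points do not, and each bar is a list median. The members' median was 1.11, the list of other sensors and RNA helicases had a median of -0.11 and the interferon list one of 1.29.

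Over the 8 lists 98 genes were tested, and 20 of them (20.4%) were higher, beside 9.4% of all genes. Hnrnpa2b1 and Insig1 were the 2 that were lower. Of these 22 calls, 12 were kept in all 10 fits that left out 1 library, and 13 with scaling by total count alone. The lists were chosen with earlier results of these data known, so the counts are descriptions.

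Levels were compared between genes as FPKM, the deposited values, which are scaled to both transcript length and library depth. In controls the order of mean FPKM was Tbk1 (17.4 ± 2.98), Zbp1 (13.6 ± 3.97), Trex1 (11.9 ± 1.74), Tmem173 (8.77 ± 1.49), Ddx58 (7.67 ± 2.08), Mavs (6.04 ± 1.99), Dhx58 (5.79 ± 1.81), Eif2ak2 (4.97 ± 1.09), Ifih1 (4.64 ± 1.11) and Adar (4.36 ± 1.53) (SD, n = 5). Each gene's range overlapped that of the next. In ox-LDL-treated cells Zbp1 came first with 411.2 ± 217.6 FPKM (252.9 to 769.4), with no overlap with Trex1 at 55.1 ± 38.8 FPKM. Below Trex1 the order was Tbk1 (30.9 ± 8.70), Dhx58 (20.7 ± 11.3), Ddx58 (11.8 ± 3.00), Ifih1 (11.1 ± 4.98), Adar (8.73 ± 3.54), Mavs (8.41 ± 3.65), Tmem173 (7.30 ± 2.15) and Eif2ak2 (7.27 ± 2.66), again with overlap between neighbours. Tbk1, first of the members in controls, was thus behind Zbp1 and Trex1. The length behind the FPKM of Ddx58 ranged from 757 to 3700 bases over libraries, so its place in both orders is uncertain.

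The variation among ox-LDL libraries was shared by several members. Ox-LDL 5 was the highest of the ox-LDL libraries for 8 of 10 members (all but Zbp1 and Tmem173) and for 21.3% of all genes. It exceeded the mean of the other ox-LDL libraries by 1.89 (log2) for Trex1, 1.49 for Dhx58, 1.38 for Ddx58 and 1.12 for Mavs, and by 0.13 for Tmem173. Control 5 was the highest control for 5 members (Ddx58, Dhx58, Mavs, Zbp1 and Adar) and for 29.1% of all genes. Control 4 was the lowest control for 6 members. The share of all genes with that library lowest was not computed, so this count is a description.

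Ox-LDL 2 behaved differently from ox-LDL 5. It was the lowest ox-LDL library for 5 members and the highest for Zbp1. Among all genes it was the highest for 29.8%, and the share with it lowest was not computed. It differed from the mean of the other ox-LDL libraries by 1.702 (log2) for Zbp1, 0.22 for Trex1 and 0.17 for Tmem173, by -0.20 for Eif2ak2 and -0.35 for Tbk1, and by -0.64 to -1.18 for Dhx58, Adar, Ddx58, Mavs and Ifih1. The implied lengths of Zbp1 (median 826 bases) and Trex1 (917 bases) were the shortest of the members, in the class of genes under 1000 bases that was raised in this library by a median of 1.81, and the part of length in these values was not tested for single genes. With CPM scaled by library size alone, ox-LDL 2 lay within or below the control range for Ddx58 (10.97 CPM), Ifih1 (12.1 CPM), Mavs (8.18 CPM), Tbk1 (47.1 CPM), Adar (19.0 CPM), Eif2ak2 (15.1 CPM), Dhx58 (18.6 CPM) and Tmem173 (9.95 CPM). On that scale 2 members, Zbp1 and Trex1, had no overlap between groups (6.18% of all genes), whereas without ox-LDL 2 there were 7 on either scale (14.6% of all genes by library size and 18.6% with TMM factors), Ddx58 and Adar joining the 5. Without control 5 instead, there were also 7 with TMM factors (14.1% of all genes), again with Ddx58 and Adar.

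**Figure D4:**
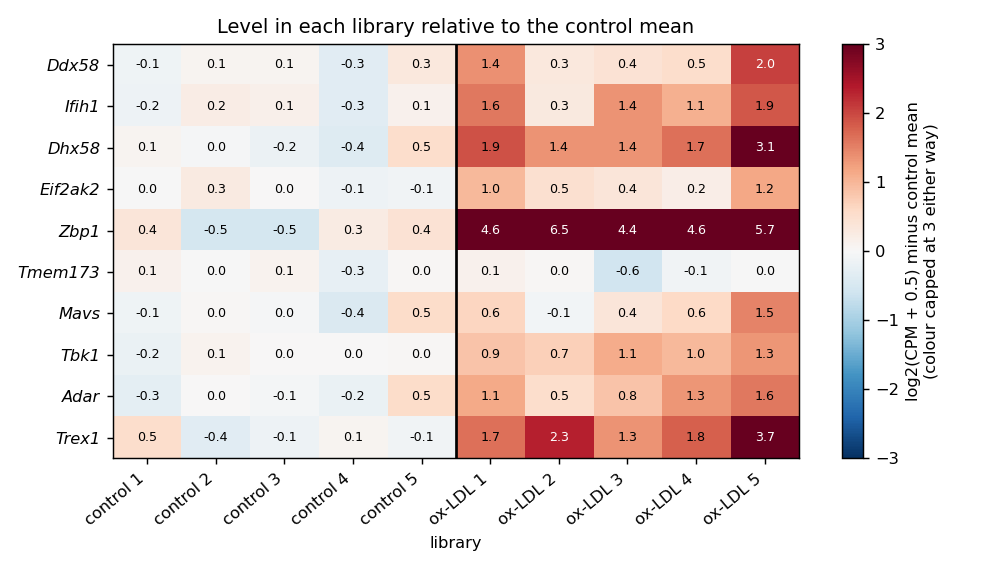
Level of each member in each library as log2(CPM + 0.5) minus the control mean of that value (number in each cell; colour stops at 3 either way; columns are the 5 control and 5 ox-LDL libraries). Zbp1 reached 6.51 in ox-LDL 2, where Mavs was at -0.07, and ox-LDL 5 held the highest value of 8 members.

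Within groups, the members' log2 CPM were compared after removal of each group's mean (10 libraries). Pearson's r between pairs of members had a median of 0.52 over 45 pairs and ran from -0.53 (Ifih1 and Zbp1) to 0.94 (Dhx58 and Mavs), with 7 pairs above 0.8. The value of Ifih1 and Zbp1 turned to 0.17 without ox-LDL 2 and was -0.85 without ox-LDL 5. Mavs also went with Adar (0.92) and Ddx58 with Dhx58 (0.92). The median moved with single libraries and was 0.55 without ox-LDL 2 and 0.20 without ox-LDL 5, where 3 pairs were above 0.8 and 19 below 0. All these values share the libraries' depth and TMM factors and are given as descriptions. Of 7366 genes with a symbol and at least 10 CPM in 5 libraries, those most like the members' mean in the same measure were Maea (r = 0.98), Dok1 (0.97), Sp100 (0.97), Trim30d (0.97) and Acp2 (0.96). Of these, Trim30d (log2 fold change 1.61 ± 0.29 SE, edgeR adjusted p = 0.00168) and Sp100 (1.18 ± 0.28 SE, edgeR adjusted p = 0.00887) were higher in ox-LDL libraries. The 5 genes are the top of 7366, and their r values were not computed again with a library, such as ox-LDL 5, left out.

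The deposited counts and FPKM together give the transcript length by which each value was divided, a hint of which isoforms were counted. For 5060 genes with at least 200 counts in every library this implied length had a median coefficient of variation of 0.97% over libraries. Trex1 (911 to 928 bases), Dhx58 (2236 to 2261) and Tbk1 (2918 to 3028) kept nearly 1 length. Ddx58 was the exception among the members, with 1331 to 2723 bases in controls, 757 bases in ox-LDL 2 and 2389 to 3700 bases in the other ox-LDL libraries. The ratio of its group means was 1.54 in FPKM and 1.91 in CPM scaled, like FPKM, by library size alone, while it was 2.16 in TMM-scaled CPM. Zbp1 was at 739 to 833 bases in controls, 922 to 993 bases in ox-LDL 1, 3, 4 and 5, and 715 bases in ox-LDL 2, so that the control and ox-LDL ranges were apart in all libraries but that one. Which isoforms lie behind these lengths was not tested.

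**Figure D5:**
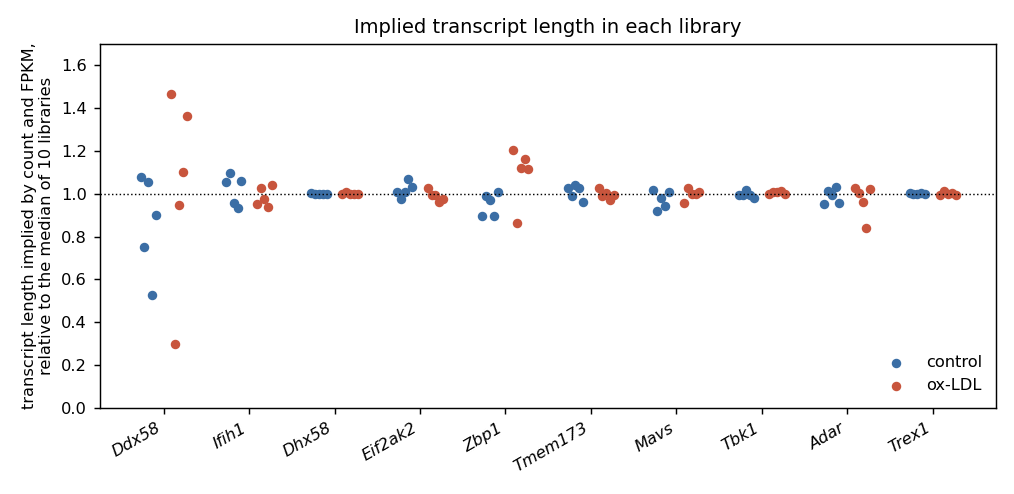
Transcript length implied by counts and FPKM for each member in each library, divided by the gene's median over 10 libraries; each point is 1 library and colours mark the groups. Before that division Ddx58 ranged from 757 to 3700 bases, Zbp1 from 715 to 993 bases and Trex1 from 911 to 928 bases.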

How the data were processed

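RNA-seq of 5 control and 5 ox-LDL libraries was analysed. The authors aligned reads with HISAT2 (2.0.5) to mm9 and used SAMtools (1.4) and StringTie (1.3.3.13), as the methods and the submitters' processing notes give it; the counting step and its use of strand are not given in the sources used here. The authors deposited estimated counts per gene, not normalized, of which 13.6% were more than 0.001 from a whole number, and a second value per gene that they do not name, treated here as FPKM because count, value and total gave a nearly constant length per gene. Of 39488 entries, 9788 circular RNAs were left out and 6318 unnamed BGIG genes were kept. No column with values of other samples was present.

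Counts were rounded, filtered with filterByExpr by group, normalized by TMM and tested with edgeR 4.0.16 (robust quasi-likelihood, Benjamini-Hochberg) in R 4.3.3, without pairing. The paper names no test for these counts. Standard errors were the fold change divided by the root of F. With 5 libraries per group, p-values weigh the difference between groups against the spread between these cultures. Alternatives were DESeq2 1.42.0, limma-voom 3.58.1, other scalings and filters, removal of the trend on length, limma on log2(FPKM + 1) and log2(FPKM + 0.1) (FPKM of at least 1 in 5 libraries, or no filter), the replicate number as a block and each library left out. Control 5 and ox-LDL 2 were left out together after the data were seen.

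The members, lists and tests were chosen with earlier results of these data known. Text names all members, up to 4 called genes per list with the largest change, uncalled partners in a member's complex, and the 5 genes most like the members' mean. Traf6 was added to complete its count after its value was seen. Positions are from GENCODE vM1 (mm9), and promoters from RefSeq (GRCm38.p6). The edgeR, DESeq2 and limma-voom fits were tested on simulated counts that carried no trend on length, so that test does not cover such a trend. The other alternatives were not tested in this way. The values of 1 gene of the lists are not reported here.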

Additional observations from a re-analysis of the deposited data

Results flagged for a closer look

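A library was set apart from its group where its gap to the nearest other library, divided by the group's range, passed 0.71, Dixon's 95% limit for 5 samples. Level and implied length of the 10 members were examined in both groups, 40 sets of 5 values, of which chance alone sets apart about 1 in 20 (2). Passing were 3. Dhx58 in ox-LDL had 103.6 CPM in ox-LDL 5, with 46.05 CPM next (0.797 of the range). Trex1 in ox-LDL had 137.5 CPM in ox-LDL 5, with 54.12 CPM next (0.753). The implied length of Zbp1 was 715.1 bases in ox-LDL 2, with 922.1 bases nearest (0.744). The part of depth, gene length or cell composition of these libraries in the values was not tested.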

How the results depend on the processing

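Zbp1 and Trex1 remained higher in all 26 alternatives (adjusted p of at most 0.000226 and 0.00581), and Mavs and Eif2ak2 were called in none with the cutoff of 0.01. Of the 10 members, 6 were higher, and 4 to 7 with 1 library left out, 3 with library size alone, 3 with log2(FPKM + 1) and with log2(FPKM + 0.1), and 2 with log2(FPKM + 1) unfiltered. Above a log2 fold change of 2 there were 3 members, 1 to 3 with 1 library left out (1 without ox-LDL 5), and 1 with log2(FPKM + 1), filtered or not. Of all genes, 1189 were higher and 677 lower. Higher were 826 to 1755 with 1 library left out, 704 with library size alone, 555, 543 and 472 with the 3 FPKM settings, 1843 with control 5 and ox-LDL 2 left out, and 2045 at an adjusted p below 0.05. Lower were 436 to 1502 with 1 library left out, 1244 with DESeq2, 1483 with both libraries left out and 1320 at 0.05. The split of higher and lower was 1468 to 495 with the length trend removed and 555 to 750 with log2(FPKM + 1). Of the related genes, 20 were higher, and 11 to 26 with 1 library left out (11 without control 1 or 4, 12 without control 2 or 3), 11 with library size alone, 11, 11 and 10 with the FPKM settings, and 31 at 0.05. Tmem173 lay between -0.17 (without ox-LDL 2) and 0.0074 (without ox-LDL 3) with 1 library left out, and its sign also turned with the length trend removed (0.18), which moved the median log2 fold change of all genes from 0.10 to 0.28; it was -0.09 with library size alone, 0.27 with no filter, and -0.14 and -0.18 with filtered FPKM. The causes were not tested.

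Same-numbered control and ox-LDL libraries shared a number but did not deviate together in every pair (correlations of -0.0115, -0.366, 0.489, -0.345 and 0.422; only number 5 matched its own best). With the replicate block 5 members, 13 related genes and 885 of all genes were higher and 549 lower, and Ifih1 lost its call (1.27, edgeR adjusted p = 0.0124). Transcripts as rare as Ifnb1 were under the depth that could be tested.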
